A study of Mus musculus with 6 samples.

Results

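Of 17091 genes measured by RNA sequencing in the lateral wall of the mouse cochlea, 46 that encode Wnt ligands, their receptors, their antagonists and the core of the pathway are described here at 2 ages. The 46 were taken by name alone, as every numbered symbol that begins with Wnt, Fzd (Frizzled), Sfrp, Dkk or Rspo (R-spondin), plus Lrp5, Lrp6, Axin1, Axin2, Lef1, Tcf7, Tcf7l1, Tcf7l2, Ctnnb1, Frzb, Wif1 and Porcn. They comprised 14 Wnt ligands and Porcn, 10 Frizzled receptors and 2 co-receptors, 3 R-spondins, 9 secreted antagonists and 7 cytoplasmic or nuclear components. The lateral wall consists of the stria vascularis, an epithelium that keeps up the ion composition of endolymph, and the spiral ligament of connective tissue behind it. Mice of the inbred strain CBA/CaJ were 2 months (young, n = 3) or 2.5 years (old, n = 3) of age. No treatment is named in the labels, and each library holds both cochleas of a single mouse. The labels name no sex and no allele besides the strain.

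Wnt proteins are secreted lipid-modified ligands that bind Frizzled receptors on nearby cells. With the co-receptors Lrp5 and Lrp6, the canonical branch halts the destruction of beta-catenin, which then acts with factors of the TCF and LEF group on target genes. R-spondins strengthen the signal by sparing Frizzled receptors from removal, whereas Sfrp proteins, Frzb and Wif1 bind Wnt ligands and Dkk1 blocks the co-receptors. Other branches steer cell polarity and calcium. In the inner ear, Wnt signalling takes part in forming the cochlear duct and in orienting hair cells, and the Frizzled receptor Fzd4 with its ligand norrin is needed for the vessels of the stria.

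Normalised read counts are given throughout, that is, reads divided by a size factor of the library. Recovered totals ranged from 37055355 to 39103398 reads per library. Defining markers of marginal, intermediate and basal cells and of fibrocytes were present in all 6 libraries, although the source label of the samples names auditory nerve cells. The neuronal markers Snap25, Nefl, Nefh and Tubb3 summed to 161 to 417 normalised reads in the young libraries and to 321, 3888 and 4470 in old replicates 1, 2 and 3. Xist had 45.2 normalised reads in old replicate 3, which stands apart from the other 5 libraries with 24382 to 29162. Erythroid and marrow markers were high in old replicates 1 and 3: the 4 neutrophil and marrow markers summed to 182 to 281 in young libraries and to 2742, 439 and 5051 in old replicates 1, 2 and 3.

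Promoter sequence is shown for the Frizzled gene with the largest drop (Fzd9), for a Frizzled gene whose promoter holds a TCF/LEF match (Fzd7) and for Axin2, a textbook target of beta-catenin, so that the values below can be read beside the sequences. The stretches end at the RefSeq transcript start on GRCm38.p6 (Fzd7 and Axin2) or before the first annotated exon (Fzd9), are written 5′ to 3′ on the strand of the gene and leave out annotated exons. Capitals mark the TCF/LEF motif, searched as the letters CTTTG followed by any pair made of A and T, or the GC box, searched as GGGCGG, each on both strands and with overlapping matches counted.
Fzd9, chr5:135251231-135251297, minus strand: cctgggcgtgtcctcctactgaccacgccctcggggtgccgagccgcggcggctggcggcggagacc
Fzd7, chr1:59481897-59482146, plus strand: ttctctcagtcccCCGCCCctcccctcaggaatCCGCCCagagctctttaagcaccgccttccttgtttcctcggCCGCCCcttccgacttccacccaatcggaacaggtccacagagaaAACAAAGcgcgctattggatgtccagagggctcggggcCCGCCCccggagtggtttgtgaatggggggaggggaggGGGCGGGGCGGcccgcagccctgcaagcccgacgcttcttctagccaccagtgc
Axin2, chr11:108920099-108920348, plus strand: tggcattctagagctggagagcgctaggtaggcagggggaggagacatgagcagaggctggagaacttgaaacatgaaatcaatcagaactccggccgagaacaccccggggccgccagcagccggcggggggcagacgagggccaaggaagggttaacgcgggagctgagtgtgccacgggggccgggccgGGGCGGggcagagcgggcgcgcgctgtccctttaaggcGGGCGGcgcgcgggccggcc
The Fzd7 stretch held 1 TCF/LEF match, 130 bases before the start, and 6 GC boxes, and that of Axin2 held 0 and 2. The whole 250-base window of Fzd9 held 0 TCF/LEF matches and 1 GC box. RefSeq promoter windows matched 30 of the 46 genes by symbol, as 39 windows. Over the 250 bases before each start, 6 of the 39 windows (15.4%) held a TCF/LEF match, against 14.8% of 32851 promoter windows of all genes. The GC box occurred in 32.7% of all windows and in most of the Wnt windows. Windows of the Wnt genes had a median GC content of 66.8%, against 52.4% over all windows.

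In old mice, 4 of the 46 genes were lower and none was higher at a limma adjusted p under 0.05: the receptor Fzd9, the co-receptor Lrp5, the ligand Wnt2b and the antagonist Sfrp4. These were 8.7% of the 46, where 5.25% of all genes passed this threshold, 2.55% lower and 2.71% higher in old mice. Without adjustment, 15 of the 46 genes were lower and 2 higher at p under 0.05, a threshold that 10.6% of all genes passed as lower and 10.8% as higher. The test with edgeR on recovered reads called 3 lower and 0 higher, where it called 5.07% of all genes and 2.33% as lower. DESeq2 called 8 lower and 0 higher, where it called 10.6% of all genes and 4.93% as lower. The authors' deposited table also has 8 of the 46 lower at its adjusted p under 0.05, with 4.93% of all genes lower. The values of old and young libraries did not overlap in 13 of the 46 genes, 12 lower and 1 higher in old. Groups without overlap made up 26.1% of all genes, 12.8% lower and 13.2% higher. The median log2 fold change (old minus young, of values on a log2(value + 1) scale) was −0.17 over the 46 genes and 0.00 over all genes, and 29 of the 46 values lay below 0 (63%) against 50.2% of all genes.

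**Figure D1:**
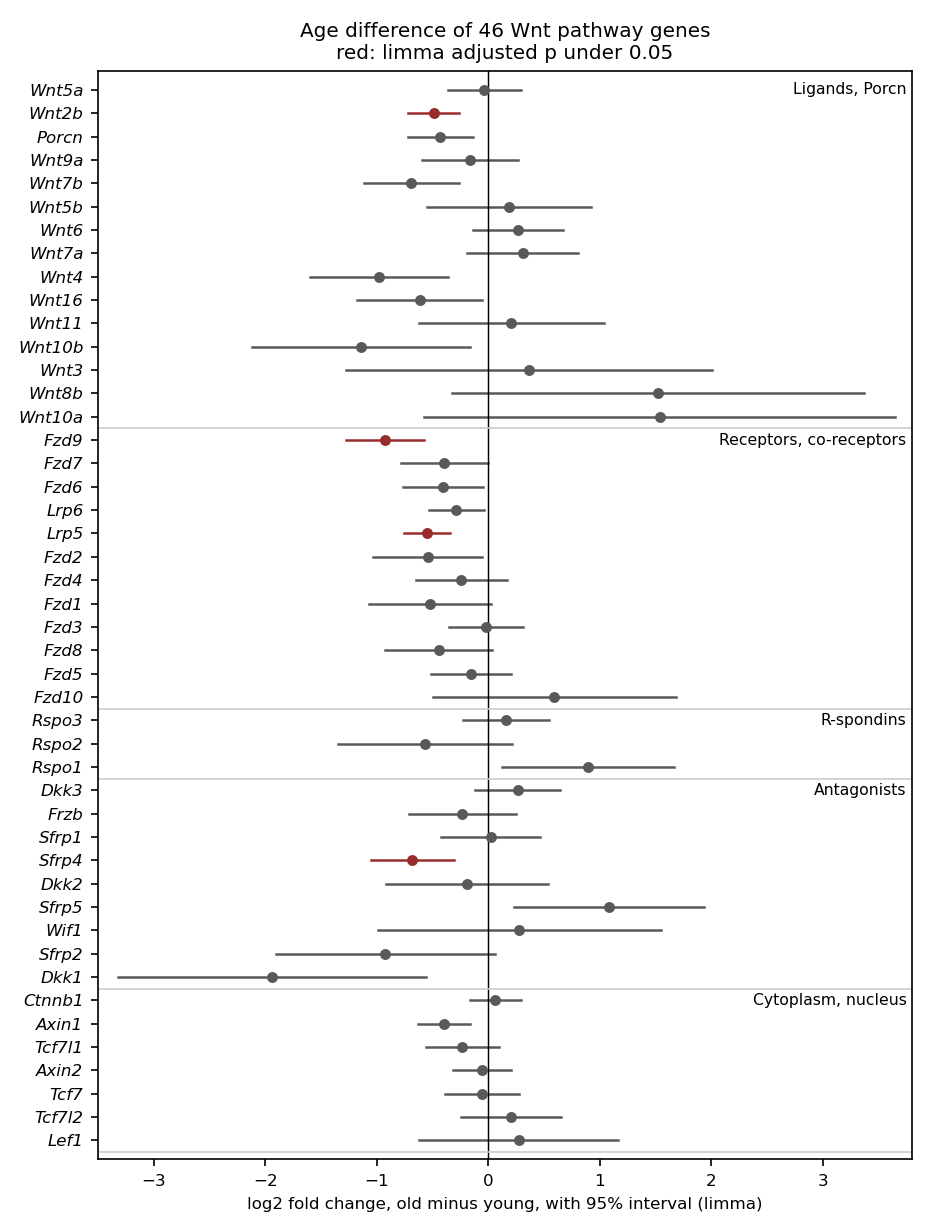
Log2 fold change, old minus young, of each of the 46 genes with its 95% interval from limma (x axis), ordered by role and by level (y axis). The 4 genes in red passed an adjusted p under 0.05, and 9 of the 10 Frizzled genes lie below 0 (8 of 10 with quantile normalisation).

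Most receptor genes had lower means in old mice. Of 12 receptors and co-receptors, 2 fell (16.7%, against 5.25% of all genes) and 10 did not pass. At an unadjusted p under 0.05, 6 of the 12 were lower, 4 Frizzled genes among them, and 0 higher. Of all genes, 10.6% were lower and 10.8% higher at that threshold. The median log2 fold change was −0.40, with 11 values below 0 (91.7%, against 50.2% of all genes). Quantile normalisation moved Fzd3 from −0.02 to 0.01, which leaves 10 below 0. Fzd9, a Frizzled receptor also known from bone-forming cells, was the most abundant Frizzled transcript per kilobase of exon model. It had 7024, 7177 and 7743 normalised reads in young replicates 1, 2 and 3 and 3613, 4972 and 3178 in old replicates 1, 2 and 3. Every old library was lower than every young one, and old replicate 2 was the highest of the old. The means were 7315 ± 379 and 3921 ± 936 (SD, n = 3 each), so that the old mean was 53.6% of the young, with a log2 fold change of −0.92 ± 0.15 (SE) and a limma adjusted p of 0.0132.

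Lrp5, a co-receptor whose loss weakens bone and retinal vessels, had 4218, 4402 and 4289 normalised reads in the young and 2895, 2789 and 3142 in the old libraries. Its groups were far apart relative to their spread, 4303 ± 92.5 against 2942 ± 181 (SD, n = 3 each). The log2 fold change was −0.55 ± 0.09 (SE) with a limma adjusted p of 0.0118. Lrp6, the closely related co-receptor, had 8444, 8637 and 9272 in young and 6640, 6823 and 8235 in old libraries. These values did not overlap either, but old replicate 3 lay close to the young range. Lrp6 did not pass the test (log2 fold change −0.29 ± 0.11, SE, limma adjusted p = 0.169). Whether the difference of Lrp5 is larger than that of Lrp6 was not tested.

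Leaving out young replicate 2 or young replicate 3 ended the calls of Fzd9 and Lrp5. Without young replicate 2 the limma adjusted p was 0.0537 for Fzd9 and 0.0629 for Lrp5, and without young replicate 3 it was 0.0705 and 0.0712. Their log2 fold changes then lay at −0.94 and −0.53, and at −0.88 and −0.55. With old replicate 3 left out, both were called, with log2 fold changes of −0.79 and −0.60.

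None of the other 9 Frizzled genes passed. Fzd7 and Fzd6, second and next in level per kilobase, had 2909, 3967 and 4107 and 2910, 3631 and 4083 normalised reads in the young libraries. In the old libraries Fzd7 had 2916, 3220 and 2221 and Fzd6 3013, 2815 and 2181. Both genes were lowest in old replicate 3, and their groups overlapped through young replicate 1. Their log2 fold changes were −0.39 (95% interval −0.79 to 0.00) and −0.41 (−0.76 to −0.05), with limma adjusted p of 0.232 and 0.178. Fzd2 had 1004, 1150 and 1087 in young and 720, 1042 and 539 in old libraries, with a log2 fold change of −0.54 and a limma adjusted p of 0.19. It passed only without old replicate 2 (limma adjusted p = 0.0194). Fzd4, the receptor of norrin, had −0.24 (−0.65 to 0.17), and Fzd3 had −0.02 (−0.35 to 0.31). Fzd1, Fzd5 and Fzd8 had −0.52, −0.15 and −0.45. Fzd10, the Frizzled gene with the fewest reads, was the one with a value above 0 (0.59, −0.50 to 1.68). It had 138 normalised reads in old replicate 2 against 33.9 and 59.6 in the other old libraries.

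**Figure D2:**
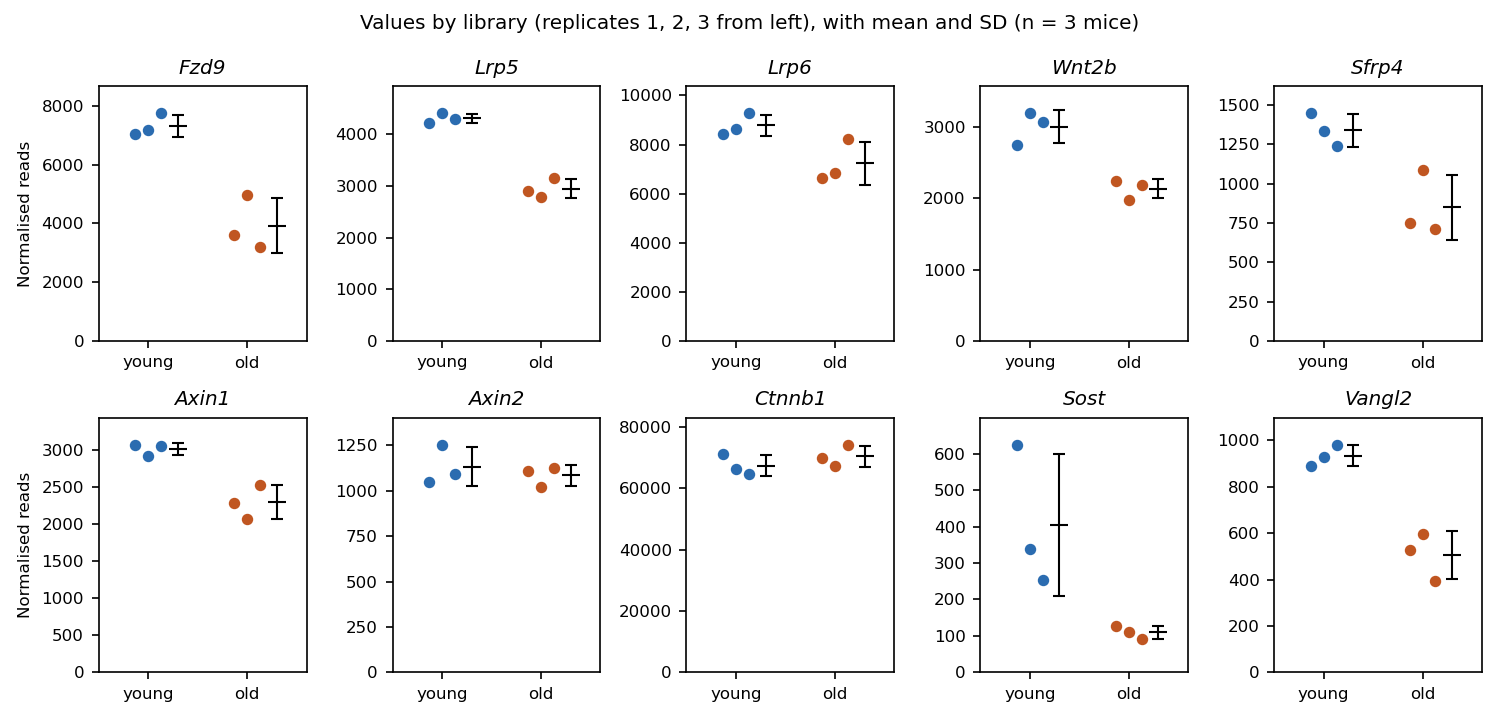
Normalised reads (y axis, from 0) in the 3 young and 3 old libraries for 10 genes, with mean and SD beside the points. Fzd9, Lrp5, Wnt2b, Sfrp4, Sost and Vangl2 passed the test and show no overlap between groups. Lrp6 and Axin1 show none either but missed the threshold, and Axin2 and Ctnnb1 overlap.

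Summed per kilobase of exon model, the Frizzled transcripts amounted to 5554 ± 424 normalised reads per kilobase in young mice and 3542 ± 643 in old mice (SD over 3 mice). The groups did not overlap, but Fzd9 is the largest part of this sum. The sum therefore does not show a separation of the other Frizzled genes. Taken singly, 1 of the 10 Frizzled genes, Fzd9, had groups without overlap (10%, against 26.1% of all genes). Fzd9 made up 60, 55.8 and 56.8% of this sum in the young libraries and 45.3, 51.4 and 47.3% in the old. Fzd9 was thus the leading Frizzled transcript in all 6 libraries and its share was lower in each old library. Fzd7 held 14.5% and Fzd6 13.2% on average in young mice, and 17.4% and 15.8% in old mice. These shares sum to a fixed total and are given as a description.

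**Figure D3:**
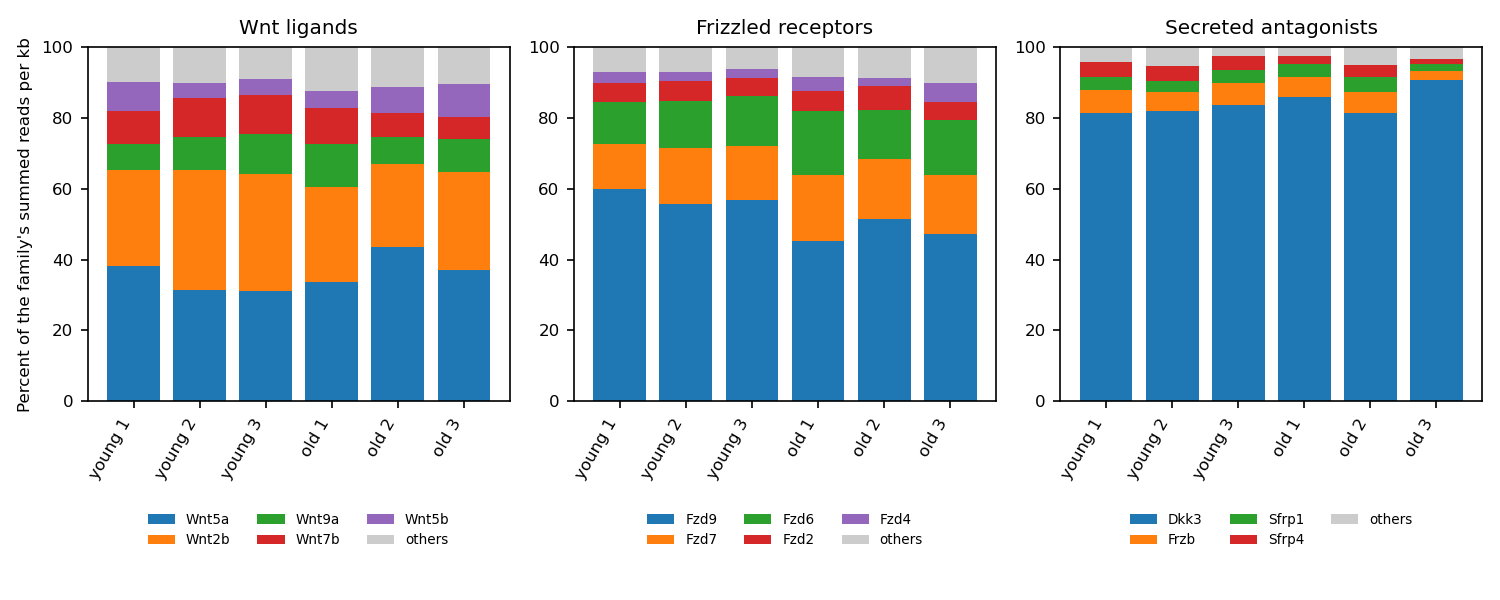
Share of each gene in the summed reads per kilobase of its family (y axis, percent) in each library (x axis), for Wnt ligands, Frizzled receptors and secreted antagonists. Fzd9 and Dkk3 lead their families in all 6 libraries, and the share of Fzd9 is lower in each old library.

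Among the ligands 1 of 14 fell and none rose (7.14%, against 5.25% of all genes). At an unadjusted p under 0.05, 5 were lower, where 10.6% of all genes were. The test with edgeR called 1 ligand and DESeq2 3, all lower, where they called 2.33% and 4.93% of all genes as lower. Per kilobase, Wnt5a and Wnt2b led in both groups. Wnt2b, a ligand of the canonical branch, had 2749, 3196 and 3072 normalised reads in young and 2243, 1984 and 2192 in old libraries. All 3 old libraries were lower than the lowest young one, and the spread within groups was small (3006 ± 231 and 2139 ± 137, SD, n = 3 each). The log2 fold change was −0.49 ± 0.10 (SE, limma adjusted p = 0.0286). It was no longer called when young replicate 2 (limma adjusted p = 0.126) or young replicate 3 (0.139) was left out.

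Wnt5a, the main ligand of the polarity and calcium branches, had 7203, 5471 and 5377 in young and 5202, 6887 and 5511 in old libraries. Each group held 1 high library, and the groups overlapped, with old replicate 1 below the lowest young library. Its log2 fold change was −0.03 (95% interval −0.36 to 0.30), and it changed sign in 4 of 16 alternative analyses, quantile normalisation among them. Wnt5a made up 33.6% ± 4.05 of the ligand sum per kilobase in young mice and 38.1% ± 5.11 in old mice, and Wnt2b 31.4% ± 3.73 and 26.0% ± 2.23 (SD over 3 mice).

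Several less abundant ligands had values without overlap but missed the threshold. Wnt7b had 1089, 1192 and 1206 in young and 986, 656 and 576 in old libraries (log2 fold change −0.69 ± 0.19, SE, limma adjusted p = 0.0732), with old replicate 1 near the young range, and passed without that library (limma adjusted p = 0.00975). Wnt4 had 168, 260 and 127 in young and 93.1, 86.1 and 88.4 in old libraries (−0.98 ± 0.27, limma adjusted p = 0.0767). The 3 old values of Wnt4 lay close together, and the young values were spread. DESeq2 called both genes lower, as does the authors' deposited table with adjusted p of 0.0206 for Wnt7b and 0.0105 for Wnt4. Wnt16, which is known for keeping cortical bone, had 93.4, 118 and 93.9 in young and 53.3, 75.6 and 70.1 in old libraries (−0.62 ± 0.25, limma adjusted p = 0.193). Wnt10b, a ligand tied to bone formation, had 11.2 to 19.7 normalised reads in young and 5.67 to 7.69 in old libraries (limma adjusted p = 0.171). Wnt6 was the only one of the 46 genes whose old values all lay above the young, 191 to 242 against 174 to 191, with a gap of under 1 normalised read between the groups (limma adjusted p = 0.435).

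Wnt9a, Wnt5b, Wnt7a and Wnt11 overlapped between groups, with log2 fold changes of −0.16, 0.18, 0.31 and 0.21. Wnt3, Wnt8b and Wnt10a, with 1 to 21 reads per group, were barely detected. Wnt10a had a total of 1 read in young mice and 13 in old mice, with 0 in old replicate 3. This is a ratio of 12.03 per normalised read with a 95% exact counting interval of 1.81 to 511, which covers counting error only.

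Porcn, the enzyme that attaches the lipid to Wnt ligands, had 959, 950 and 852 in young and 605, 752 and 698 in old libraries. No old library reached the lowest young one, yet the limma adjusted p was 0.093 (log2 fold change −0.43 ± 0.13, SE), and DESeq2 gave an adjusted p of 0.0326. Wls, which carries the finished ligand to the cell surface, had 15007 ± 899 normalised reads in young mice and 14685 ± 1925 in old mice, with a log2 fold change of −0.04 (95% interval −0.30 to 0.23).

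**Figure D4:**
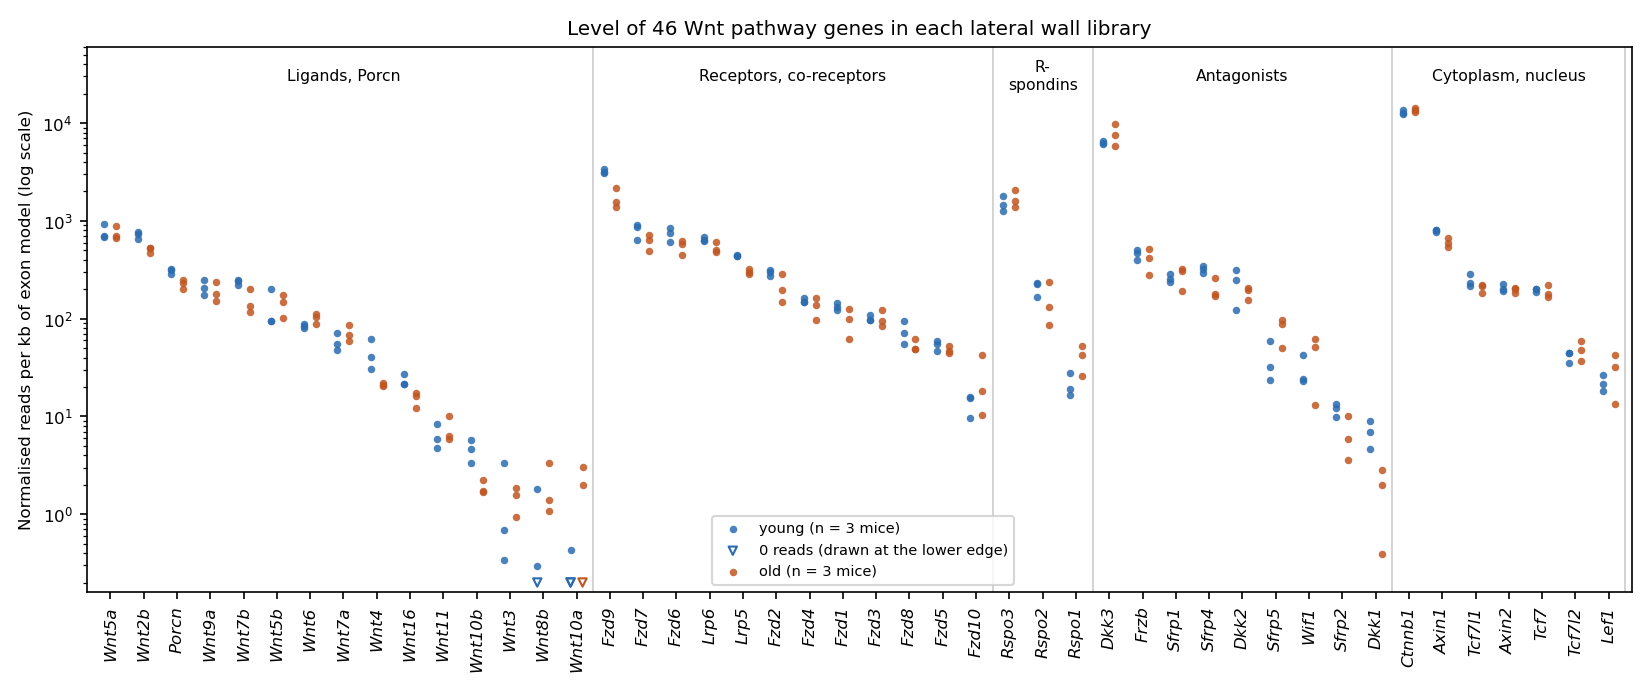
Normalised reads per kilobase of exon model (y axis, log scale) of the 46 genes in each of the 3 young and 3 old libraries, grouped by role. Levels span from Ctnnb1, at 12992 in young mice, down to ligands with a few reads, and triangles at the lower edge mark libraries with 0 reads.

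R-spondin transcripts were dominated by Rspo3. None of the 3 genes passed in limma, edgeR or DESeq2, which called 5.25, 5.07 and 10.6% of all genes. At an unadjusted p under 0.05 in limma 1 was higher, where 10.8% of all genes were. Rspo3 had 5511, 3935 and 4519 normalised reads in young and 4888, 4304 and 6458 in old libraries. It overlapped between groups (log2 fold change 0.16, 95% interval −0.23 to 0.55) and made up 86.7% of the R-spondin sum per kilobase in young mice and 89.4% in old mice on average. Rspo2 had 1195, 847 and 1167 in young and 1198, 678 and 443 in old libraries, where old replicate 1 slightly exceeded the highest young value and old replicate 3 was lowest (−0.57, −1.35 to 0.21). Rspo1 had 53.5, 32.2 and 36.8 in young and 50.4, 102 and 81.7 in old libraries, with 1 old library inside the young range (0.89, 0.12 to 1.66, limma adjusted p = 0.173).

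Lgr5, a receptor of R-spondins, had 2774, 2601 and 3292 in young and 2239, 1485 and 988 in old libraries. The groups did not overlap, but the old libraries differed widely from each other, and the limma adjusted p was 0.0879 (log2 fold change −0.95 ± 0.27, SE). It passed without old replicate 1 (limma adjusted p = 0.00975). None of the 5 R-spondin receptor and Frizzled turnover genes, Lgr4, Lgr5, Lgr6, Rnf43 and Znrf3, passed in limma or edgeR. These tests called 5.25% and 5.07% of all genes. All 5 had values below 0, against 50.2% of all genes. At an unadjusted p under 0.05 in limma 1 was lower, where 10.6% of all genes were. DESeq2 called 1 lower, Lgr5, where it called 4.93% of all genes as lower.

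Of the 9 secreted antagonists, 1 fell (11.1%, against 5.25% of all genes), none rose and 8 did not pass. At an unadjusted p under 0.05, 2 were lower and 1 higher, where 10.6% of all genes were lower and 10.8% higher. Dkk3, a member of the Dkk family that does not block Wnt signals in the way Dkk1 does, made up 82.3% ± 1.06 of the antagonist sum per kilobase in young mice and 86.0% ± 4.67 in old mice. It had 21896, 21099 and 20562 normalised reads in young and 25215, 19692 and 33062 in old libraries. The old libraries spread on both sides of the young ones, with old replicate 3 highest, and the log2 fold change was 0.26 (95% interval −0.12 to 0.65).

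Sfrp4, a Wnt-binding protein whose loss thins cortical bone, had 1447, 1333 and 1237 in young and 752, 1084 and 709 in old libraries. All old values were below all young ones, and old replicate 2 was again the closest to the young. The means were 1339 ± 105 and 848 ± 205 (SD, n = 3 each), and the log2 fold change was −0.68 ± 0.17 (SE). The limma adjusted p of 0.0493 lay at the threshold, and 13 of 16 alternative analyses did not call Sfrp4 (edgeR adjusted p = 0.062, range without 1 library 0.00512 to 0.146 in limma).

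Frzb, a Wnt-binding protein first known from cartilage, had 1642, 1302 and 1528 in young and 1673, 1342 and 898 in old libraries. Sfrp1 had 1265, 1040 and 1121 in young and 1403, 1330 and 829 in old libraries. In both, old replicate 3 was below all young libraries and old replicate 1 above them. Old replicate 2 was above them in Sfrp1 alone, and their log2 fold changes were −0.23 (−0.71 to 0.25) and 0.02 (−0.42 to 0.47). Dkk1, the blocker of Lrp5 and Lrp6, was scarce, with a total of 48 reads in young mice and 13 in old mice. This was a ratio of 0.251 (95% exact counting interval 0.125 to 0.47), and no old library reached the lowest young one, but the limma adjusted p was 0.108. Sfrp5 had 60.8, 112 and 44.9 in young and 96.0, 184 and 169 in old libraries (log2 fold change 1.08 ± 0.38, SE, limma adjusted p = 0.142). Dkk2, Wif1 and Sfrp2 overlapped between groups, with log2 fold changes of −0.19, 0.28 and −0.92.

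None of the 7 components inside the cell passed in limma or edgeR, which called 5.25% and 5.07% of all genes. At an unadjusted p under 0.05 in limma 1 was lower, where 10.6% of all genes were. DESeq2 called 1 lower, Axin1, where it called 4.93% of all genes as lower. Ctnnb1, which encodes beta-catenin, had 71299, 66224 and 64844 normalised reads in young and 69905, 67444 and 74232 in old libraries. The groups overlapped, and the 95% interval of the log2 fold change was −0.17 to 0.30. Axin2, which beta-catenin switches on as its own brake, had 1048, 1253 and 1095 in young and 1107, 1018 and 1128 in old libraries. The groups overlapped here as well, with a log2 fold change of −0.06 (95% interval −0.32 to 0.20).

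Axin1, the scaffold of the complex that destroys beta-catenin, had 3072, 2918 and 3055 in young and 2289, 2074 and 2534 in old libraries. Its old values were all below the young, with a log2 fold change of −0.40 ± 0.10 (SE) and a limma adjusted p of 0.0607. Without old replicate 3 it passed (limma adjusted p = 0.042), and the authors' deposited table gives an adjusted p of 0.0148. Among the DNA-binding factors, Tcf7l1 and Tcf7 led per kilobase and Lef1 was lowest. Tcf7l1 had 1125, 903 and 845 in young and 717, 845 and 871 in old libraries, and Tcf7 486, 528 and 523 and 441, 579 and 464. Both overlapped between groups, with log2 fold changes of −0.23 (−0.56 to 0.09) and −0.06 (−0.39 to 0.27). Lef1 had 233, 187 and 161 in young and 118, 278 and 377 in old libraries, so that old libraries lay on both sides of the young range (0.27, −0.62 to 1.16). Tcf7l2 had 0.20 (−0.25 to 0.65).

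**Figure D5:**
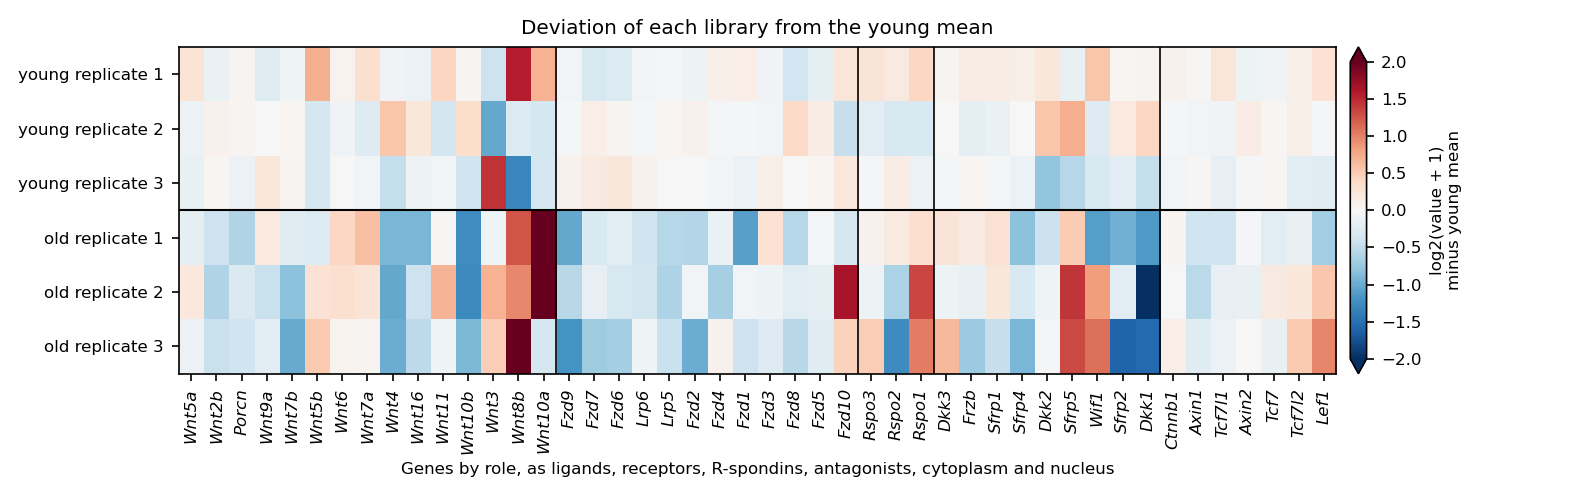
Deviation of each library from the young mean, as log2(value + 1), for the 46 genes in order of role (columns) in the 6 libraries (rows), with blue below and red above. Fzd9, Lrp5, Wnt2b, Wnt4 and Sfrp4 are blue in all 3 old rows, whereas Rspo2, Frzb and Lef1 differ between old libraries.

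Old libraries differed among themselves. In old replicates 1, 2 and 3, 22, 20 and 24 of the 46 genes lay below all young libraries (47.8, 43.5 and 52.2%), against 31.7, 32.3 and 32.7% of all genes. Above all young libraries lay 8, 11 and 11 of the 46 (17.4, 23.9 and 23.9%), against 31.8, 33.2 and 33.8% of all genes. Among the old mice Fzd9, Fzd2 and Sfrp4 were highest in replicate 2, whereas Lrp5 and Wnt2b were lowest there. The fibrocyte markers Coch, Otos, Pou3f4 and Car3 summed to 1003745 to 1130709 normalised reads in young libraries and to 570423, 922614 and 423367 in old replicates 1, 2 and 3, and 1 of the 4 (Otos) fell. Of 8 bone markers 5 fell, Ibsp and Sp7 did not pass, and Alpl had a higher mean in old mice (log2 fold change 0.26, limma adjusted p = 0.448). The sum of all 8 was 4767 to 7348 in young and 2887 to 3938 in old libraries. Of 4 cartilage markers 3 fell and Matn1 did not pass, with sums of 3541 to 4740 and 1272 to 1619. None of the fibrocyte, bone or cartilage markers was at 0 in all libraries. The part of these cell types in the lower Fzd9, Lrp5, Wnt2b and Sfrp4 was not tested, and in whole tissue fewer cells of a type and less RNA per cell cannot be told apart.

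Of 103 genes of the pathway outside these families, 4 fell and 2 rose (5.83% against 5.25% of all genes), with a median log2 fold change of −0.15. At an unadjusted p under 0.05, 23 were lower and 3 higher, where 10.6% of all genes were lower and 10.8% higher. DESeq2 called 10 lower and 3 higher, where it called 10.6% of all genes and 4.93% as lower. Of 17 extracellular modulators 8 were lower and 0 higher at an unadjusted p under 0.05. DESeq2 called 3 lower and edgeR 1 lower, where edgeR called 2.33% of all genes as lower. In limma 1 of the 17 fell and none rose (5.88%, against 5.25% of all genes). This was Sost, whose product sclerostin is made by osteocytes and binds Lrp5 and Lrp6. Sost had 624, 338 and 253 normalised reads in young and 127, 111 and 91.3 in old libraries, and every old value was below every young one (log2 fold change −1.78 ± 0.32, SE, limma adjusted p = 0.0169). Leaving out young replicate 2 ended the call (limma adjusted p = 0.0586), and limma without trend did not call Sost. Of the 8 bone markers given above, 5 fell in the same comparison, Ibsp and Sp7 did not pass and Alpl had a higher mean in old mice. The part of bone in the lower Sost was not tested.

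Of 26 genes of planar polarity and other non-canonical signalling, 3 fell and none rose in limma (11.5%, against 5.25% of all genes). At an unadjusted p under 0.05, 8 were lower and 1 higher, where 10.6% of all genes were lower and 10.8% higher. The test with edgeR called 2 lower and 1 higher, where it called 5.07% of all genes. DESeq2 called 5 lower and 1 higher, where it called 10.6% of all genes. The higher gene was Nfatc2, a calcium-dependent transcription factor, with a log2 fold change of 0.70 and adjusted p of 0.05002 in limma, 0.0469 in edgeR and 0.00359 in DESeq2. Vangl2, a core membrane protein of planar polarity, had 891, 927 and 980 in young and 526, 597 and 393 in old libraries, without overlap (log2 fold change −0.90 ± 0.16, SE, limma adjusted p = 0.0179). Ptk7, a receptor-like protein of the same system, went from 887 ± 87.1 to 544 ± 83.2, and Daam2, which links Dishevelled to actin, from 3013 ± 195 to 1496 ± 592 (SD, n = 3 each). Their limma adjusted p were 0.0312 and 0.0495. Daam2 was not called by edgeR (adjusted p = 0.0658), with quantile normalisation or with a pseudocount of 10. Limma without trend called none of Vangl2, Ptk7 and Daam2. With the replicate number as a block, Daam2 was called and Vangl2 and Ptk7 were not. Ptk7 and Daam2 were still called when old replicate 2 or old replicate 3 was left out and not when any other library was. Vangl2 was not called without young replicate 2 or young replicate 3 (limma adjusted p up to 0.0913).

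Of 17 Wnt target genes, Ccnd1 and Myc rose and none fell (11.8%, against 5.25% of all genes). At an unadjusted p under 0.05, 3 were lower, where 10.6% of all genes were. DESeq2 called 1 lower, where it called 4.93% of all genes as lower. Ccnd1, which encodes cyclin D1, had 374.5, 448.1 and 331.8 in young and 927.8, 738.5 and 1202.9 in old libraries (log2 fold change 1.29 ± 0.20, SE, limma adjusted p = 0.00855). Myc had 28.3, 31.1 and 23.5 in young and 90.2, 62.4 and 103 in old libraries (1.57 ± 0.30, limma adjusted p = 0.0206). Ccnd1 was called whichever library was left out, and Myc only when old replicate 1 or old replicate 2 was (limma adjusted p up to 0.0987). Limma without trend called Myc and not Ccnd1, and with the replicate number as a block Ccnd1 was called and not Myc. An exon of Ccnd1 overlaps an exon of LTO1 on the opposite strand, so its reads are uncertain. In both genes old replicate 3 was highest and old replicate 2 lowest of the old. The summed markers of marrow had this order, and so did those of erythroid cells, bone, marginal cells and intermediate cells. The summed macrophage markers did not, with 16295, 19218 and 26590 in old replicates 1, 2 and 3. Most of that sum was Lyz2 (12184, 15278 and 21396), which did not have the order, nor did Cd68. Adgre1 (730, 623 and 914) and Csf1r (1928, 1572 and 2266) did have it. Of 4 macrophage markers 3 rose and Csf1r did not pass (log2 fold change 0.14, limma adjusted p = 0.619), with sums of 3940 to 4734 in young and 16295 to 26590 in old. Ccnd1 and Myc respond to many signals besides Wnt, and the part of marrow cells and macrophages was not tested. Of the 17 targets, 7 had log2 fold changes below 0, and the median was 0.14. The 3 with an unadjusted p under 0.05 and a value below 0 were Lgr5 (−0.95), Apcdd1 (−0.53) and Sox9 (−0.53).

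The 4 called genes lie on GRCm38 at chromosome 5 from 135248938 to 135251230 (Fzd9, minus strand), chromosome 19 from 3584828 to 3686564 (Lrp5, minus), chromosome 3 from 104945272 to 104961921 (Wnt2b, minus) and chromosome 13 from 19623104 to 19632994 (Sfrp4, plus). Values are counts over whole genes. In 11 of the 46 genes, Axin2, Ctnnb1, Wnt5a, Fzd5, Fzd6, Rspo3, Lef1 and Wnt7b among them, an exon overlaps an exon on the opposite strand, and their reads are uncertain because the sources used here do not state strand use. None of the 4 called genes has such an overlap.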

How the data were processed

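The deposited values are a signal per gene and library, that is, counted reads scaled by size factors, per the file headers and the values themselves. The submitters' processing notes name Partek, TopHat2, DESeq2 and the build mm10 without roles. Annotation and strandedness were not given. Whole reads were recovered from the steps between low values, and 99.9% of values came out within 0.1 of a whole read. The authors also deposited p-values, adjusted p-values and a signed ratio of the groups for each gene.

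Old and young libraries (3 each, 1 mouse per library) were compared with limma 3.58.1 (R 4.3.3, trend and robust) on log2(value + 1), a scale that understates changes of genes with few reads, without a filter. Benjamini-Hochberg adjustment ran over all 17091 genes with a threshold of 0.05. Of the 46 genes, 43 had a mean of at least 10. P-values measure the spread between mice. Alternatives were edgeR 4.0.16 and DESeq2 1.42.0 on recovered reads, quantile normalisation, limma run without trend and robust estimation, genes with a mean of at least 10 alone, a pseudocount of 0.1 or 10, a replicate block, each library left out and the authors' adjusted p-values. The script was tested on simulated data. Exon models came from GENCODE M21, and levels between genes are compared per kilobase of exon model. A permutation test of 3 against 3 cannot go below 0.1, so none was run.

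The members and lists were chosen with earlier results of these data known. Named genes were those called, the 3 most abundant per kilobase in each role, Axin2, Lef1, Ctnnb1, Lrp5, Lrp6, Sost, Lgr5 and Wls and up to 3 called genes in each pathway list. Other genes are named as members or after their values were seen.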

Additional observations from a re-analysis of the deposited data

How the results depend on the processing

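The 16 alternatives called none of the 46 genes higher. Against 898 genes in all, 4 of the 46 and 6 of 103 other pathway genes, limma without trend called 337, 0 and 1, where 12 of the 46 were lower and 2 higher at an unadjusted p under 0.05. DESeq2 called 1819, 8 and 13, and the authors' deposited adjusted p-values gave 1818, 8 and 13. Leaving out 1 library gave 230 to 1134, 0 to 5 and 1 to 12, lowest without young replicates 2 or 3 and highest without old replicate 2; the 0 without young replicate 2 or 3 stand beside 9 and 11 lower genes at an unadjusted p under 0.05. With the replicate number as a block, 406, 2 and 4 were called, Fzd9 and Lrp5 among the 46, and Wnt2b and Sfrp4 were lost (limma adjusted p of 0.0856 and 0.0794). Deviations of same-numbered old and young libraries had correlations of −0.24, −0.10 and −0.09 over 13308 genes. Pairs with different numbers had −0.15 to 0.23. These values show no positive link by number, but deviations from means of 3 libraries cannot exclude a shared batch. Some uncalled genes changed sign in log2 fold change when 1 library was left out. Axin2 ranged from −0.112 to 0.017 (without young replicate 2), Frzb from −0.434 to 0.014, Lef1 from −0.077 to 0.754 and Rspo3 from −0.0073 to 0.286, each beyond 0 without old replicate 3. Sfrp1 ranged from −0.117 (without old replicate 1) to 0.262, and was also below 0 without young replicate 2 (−0.042) and old replicate 2 (−0.078). Wnt5a ranged from −0.155 to 0.102 (without young replicate 1), was above 0 without old replicate 1 (0.047) and old replicate 3 (0.0057), and was 0.026 with quantile normalisation. The causes were not tested. Wnt3, Wnt8b and Wnt10a are limited by depth.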

Other observations

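Of 22 genes of the beta-catenin destruction complex and Dishevelled, limma and edgeR called none, where they called 5.25% and 5.07% of all genes. DESeq2 called 1 (Csnk1g2, a casein kinase, named after its value was seen), where it called 10.6% of all genes. At an unadjusted p under 0.05 in limma, 4 were lower, where 10.6% of all genes were. Below 0 lay 19 values (86.4%, against 50.2% of all genes). Csnk1g2 had 6526 ± 122 normalised reads in young mice and 5028 ± 418 in old mice (SD over 3 mice), with a limma adjusted p of 0.053, and of 0.0379 without old replicate 3. Of 16 nuclear cofactors of beta-catenin, limma, edgeR and DESeq2 called none, where they called 5.25, 5.07 and 10.6% of all genes. At an unadjusted p under 0.05 in limma 1 was lower, where 10.6% of all genes were. This was Bcl9l, without overlap between groups (log2 fold change −0.65, limma adjusted p = 0.158). Of 5 Wnt secretion genes none was called or had an unadjusted p under 0.05. Limma called 5.25% of all genes, and 10.6% were lower and 10.8% higher at that unadjusted p.

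Kremen1, a receptor through which Dkk1 removes Lrp6, had 8854, 8376 and 9487 normalised reads in young and 6220, 7544 and 6049 in old libraries, without overlap (limma adjusted p = 0.0579, and 0.0152 without old replicate 2; named after its value was seen). Ndp, which encodes norrin, had 1510, 1254 and 1182 in young and 924, 1554 and 587 in old libraries, so that old replicate 2 lay above all young libraries and the others below. It passed only without old replicate 2 (limma adjusted p = 0.0473).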
